A study of Mus musculus with 8 samples.

Results

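Rab GTPase genes were examined in alveolar macrophages, which live in the airspaces of the lung. They were taken as every gene of the expression table whose symbol is Rab followed by digits and at most 1 letter. The rule found 50 of the 12701 genes in the table, and 45 of them were among the 11273 genes with enough signal to test. The macrophages had been sorted from lungs of C57BL/6 mice, and the comparison asks how their transcripts differ between lungs with and without tumors. The naive group (3 libraries) came from wild-type mice without tumors. The d15 group (2 libraries) and the d35 group (3 libraries) came from mice given KP cells, a mouse lung tumor line, by tail-vein injection, with lungs taken on day 15 or day 35 by the labels. Since the labelled growth protocol has harvests end before the later of these days, that time is uncertain. Both d15 libraries are called A and B, because their column numbers and title numbers differ. Tumors seeded through the blood are a transplant model. The labels do not say whether libraries of a group came from separate mice, so the p-values capture variation among libraries, and that may be technical only.

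Rab proteins are small GTPases that switch between an inactive form bound to GDP and an active form bound to GTP, and the active form sits on a membrane and recruits motors, tethers and fusion factors. Each Rab marks a particular membrane, so the family is used as an address system for vesicle traffic. In macrophages, early and late endosomal Rabs act in turn on newly formed phagosomes, and secretory Rabs carry granules and vesicles to the cell surface. Exchange factors load a Rab with GTP and GTPase-activating proteins (GAPs) switch it off.

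Recovered reads per library ran between 27465745 and 39572173, and 12505 to 12644 genes had at least 1 read in a library. Levels are given as scaled CPM, the deposited signal, which is close to CPM (reads scaled to a common library size). All 9 listed alveolar macrophage markers were in the table, with summed levels of 22684 to 30115 in naive, 31084 to 35495 in d15 and 32518 to 46784 in d35 libraries. Most of each sum was Chil3 (17922 to 25670 in naive, 25998 to 30810 in d15 and 26561 to 41613 in d35 libraries). At d35 against naive 2 of the 9 were called higher, Car4 and Cd68, and 1 lower, Siglecf, at 679 to 750 scaled CPM in naive, 558 to 590 in d15 and 557 to 644 in d35 libraries. Marco ranged from 155 to 665 among d35 libraries. Each of the 9 stood at 59.5 scaled CPM or more in every library, the lowest being Fabp4. Endothelial markers summed to 257 to 314 in naive, 175 to 200 in d15 and 159 to 203 in d35 libraries, and 7 of the 8 were called lower at d35 than in naive cells. Monocyte and interstitial macrophage markers summed to 405 to 641, 486 to 569 and 661 to 984 in the naive, d15 and d35 libraries, with 5 of 8 called higher at d35. Whether these other cell types had a part in the results below was not tested.

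Of the Rab genes tested, 5 passed the threshold in at least 1 of 3 comparisons, and the family as a whole stayed near its naive level. Rab20, a phagosomal Rab, was 0.60 higher on the log2 scale at d35 than in naive cells. Rab44 and Rab27a, which act in regulated secretion, were lower at d35 by 0.58 and 0.48. Rab7b, a late endosomal Rab, and Rab27b, the paralog of Rab27a, were higher at d35 than at d15. These were 0 of 45 at d15 against naive, beside 4.37% of all tested genes, 3 (6.67%) at d35 against naive, beside 16.2%, and 2 (4.44%) at d35 against d15, beside 7.39%. Rab27b was among the tested genes only through its d35 libraries, so its call is not independent of that level. With single libraries left out, 2 to 5 were called at d35 against naive. The 5 came without d35 replicate 2, with Rab7b and Rab27b added as higher. Rab27a lost its call there under 11 of 18 other settings. Both calls at d35 against d15 were lost when d15 library A or B was left out. The share of all tested genes called in these other fits is not given here. Rab genes of the early endosome, the recycling pathway, the endoplasmic reticulum (ER) and the Golgi gave no call in any comparison in limma.

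Promoter sequences are shown for 2 of the 3 genes called at d35 against naive, Rab20 and Rab27a, since RefSeq lists their starts. The call of Rab27a was lost under 11 of 18 other settings. Rab44 and Rab7b had no entry in the promoter table. The sequences are RefSeq's for build GRCm38.p6, run 5′ to 3′ on the gene's own strand and cover 250 bases before to 50 bases after an annotated start. Capitals mark CACGTG (the E-box core) or GAGGAA (the PU.1 core), and TTCCTC in capitals is GAGGAA on the other strand.
Rab20, chr8:11478591-11478890, minus strand: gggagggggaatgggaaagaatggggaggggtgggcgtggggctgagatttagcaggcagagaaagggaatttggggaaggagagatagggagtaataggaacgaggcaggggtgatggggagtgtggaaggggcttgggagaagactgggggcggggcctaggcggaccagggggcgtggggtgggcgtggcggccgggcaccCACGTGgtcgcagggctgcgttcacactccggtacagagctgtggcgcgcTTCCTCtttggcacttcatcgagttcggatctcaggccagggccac
Rab27a upstream start, chr9:73044560-73044859, plus strand: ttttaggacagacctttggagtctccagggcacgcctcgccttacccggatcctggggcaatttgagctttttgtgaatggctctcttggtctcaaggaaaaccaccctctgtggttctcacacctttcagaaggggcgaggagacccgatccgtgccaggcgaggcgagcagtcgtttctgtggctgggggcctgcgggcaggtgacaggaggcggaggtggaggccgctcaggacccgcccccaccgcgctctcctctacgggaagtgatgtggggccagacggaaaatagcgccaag
Rab27a downstream start, chr9:73063898-73064197, plus strand: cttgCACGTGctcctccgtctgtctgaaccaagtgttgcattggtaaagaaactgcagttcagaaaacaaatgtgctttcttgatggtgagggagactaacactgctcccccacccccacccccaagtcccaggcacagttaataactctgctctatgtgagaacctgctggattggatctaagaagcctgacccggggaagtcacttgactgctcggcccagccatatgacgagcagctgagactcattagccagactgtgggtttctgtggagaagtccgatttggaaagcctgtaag
The Rab20 promoter held CACGTG 46 bases before the start and GAGGAA, on the opposite strand, 5 bases after it. At Rab27a the downstream start held CACGTG 246 bases before it, and the upstream start held none of the motifs searched. Searched on both strands, CACGTG was in 7.15% of all 32851 promoters of this length, GAGGAA in 28.3% and TGACTCA (the AP-1 site) in 5.2%. Of 50 promoters matched to 41 Rab genes, 6 (12.0%) held CACGTG, 10 (20.0%) held GAGGAA and 1 (2.0%) held TGACTCA. These matches describe the letters only.

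Among phagosomal Rabs, Rab20 on chromosome 8 (11453518 to 11478710, minus strand, build GRCm38) is known to act in phagosome and macropinosome maturation in macrophages. Rab20 stood at 25.1, 28.2 and 26.0 scaled CPM in naive, 31.8 and 34.3 in d15, and 41.9, 40.0 and 39.9 in d35 libraries. The groups did not overlap, and the d15 libraries lay between the other groups. Rab20 averaged 40.6 ± 1.1 scaled CPM at d35 and 26.4 ± 1.63 in naive cells (SD, n = 3 each). Its log2 fold change at d35 against naive was 0.60 ± 0.08 (SE), with a limma adjusted p of 0.00191. The log2 fold change was 0.31 at d15 against naive (adjusted p = 0.074) and 0.29 at d35 against d15 (adjusted p = 0.0948), so neither step alone passed. Under a correction of each library for a trend with transcript length, the log2 fold change of Rab20 at d15 against naive was 0.15 (adjusted p = 0.353). Of the 50-base stretches in Rab20 transcripts, 22.9% also occur in E230013L22Rik, an antisense transcript at the Rab20 start that was not analysed here. Whether counting used the strand is not given in the sources used here, so reads of the pair cannot be told apart there. In bulk RNA, a lower or higher value can reflect fewer or more cells that express a gene or less or more RNA per cell, and these cannot be told apart.

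Rab32, which acts on lysosome-related organelles and pathogen vacuoles, had the highest level per length of the family, at 233 scaled CPM per kb over all libraries. It stood at 527, 473 and 486 scaled CPM in naive, 532 and 472 in d15, and 540, 513 and 469 in d35 libraries. These ranges overlapped throughout, and the log2 fold change of Rab32 was 0.03 at d35 against naive (adjusted p = 0.798). Of the other tested phagosomal Rabs, Rab34, known for phagosome maturation, had log2 fold changes of -0.33 at d15 and 0.33 at d35 against naive, and neither passed. Rab39 and Rab43, also found on phagosomes, lay between 2.14 and 6.26 scaled CPM and gave no call. For Rab43, 74.5% of 50-base stretches also occur in another gene, so its level is uncertain. In all, 1 of 5 tested phagosomal Rabs was called at d35 against naive, a share near the 16.2% of all tested genes, with a median log2 fold change of 0.16, against 0.05 over all tested Rab genes and -0.0022 over all tested genes.

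**Figure D1:**
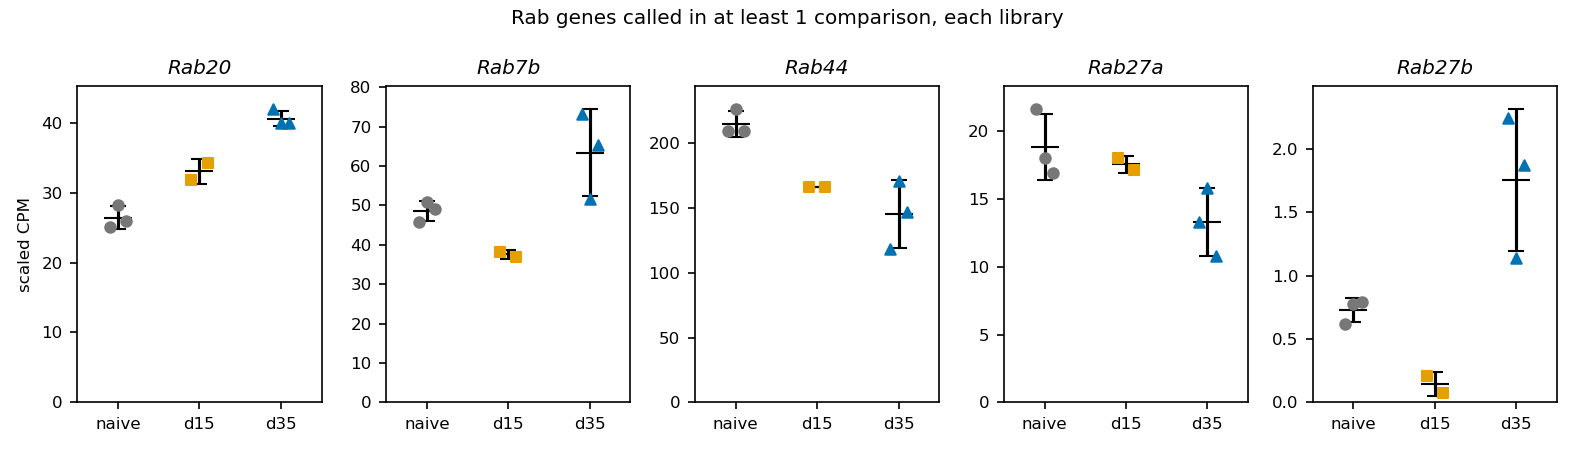
Level in scaled CPM (vertical axes, each starting at 0) of the 5 Rab genes called in at least 1 comparison, by group; points are libraries (naive grey circles, d15 orange squares, d35 blue triangles), and bars give the mean ± SD. Rab20 is highest in all 3 d35 libraries (39.9 to 41.9), Rab44 is lower in every d15 and d35 library than in any naive library, and Rab7b and Rab27b are lowest at d15.

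Among secretory Rabs, Rab44 on chromosome 17 (29114145 to 29148980, plus strand) is a large, atypical Rab with calcium-binding EF-hands, known in mice from mast cell degranulation and osteoclast differentiation. Rab44 stood at 209, 226 and 209 scaled CPM in naive, 166 and 166 in d15, and 118, 171 and 147 in d35 libraries. Every library from a tumor-bearing lung was below every naive library, and d35 overlapped d15. Rab44 averaged 145 ± 26.6 scaled CPM at d35 and 215 ± 9.97 in naive cells (SD, n = 3 each). At d35 Rab44 had a log2 fold change of -0.58 ± 0.11 (SE) against naive, with a limma adjusted p of 0.0096. At d15 against naive it was -0.37 ± 0.13, with a limma adjusted p of 0.099, while DESeq2 gave an adjusted p of 0.0343 and a fit of only these 2 groups gave 0.0211. For d15 against naive, the authors' deposited table lists Rab44 at a log2 fold change of -0.39 with a false discovery rate of 0.00434. It is the only 1 of 44 Rab genes there under 0.05, a level reached by 3.61% of the 10778 genes in the authors' deposited table. The log2 fold change of Rab44 at d35 against d15 was -0.21 (adjusted p = 0.378), and it was -0.07 without d35 replicate 1 and -0.34 without d35 replicate 2.

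Rab27a on chromosome 9 (73044854 to 73097629, plus strand) docks lysosome-related granules and exosome-bearing endosomes at the plasma membrane. It stood at 21.6, 18 and 16.9 scaled CPM in naive, 18 and 17.1 in d15, and 13.3, 15.8 and 10.8 in d35 libraries. All d35 libraries were below all naive and d15 libraries, and d15 lay inside the naive range. Rab27a averaged 13.3 ± 2.5 scaled CPM at d35 and 18.8 ± 2.44 in naive cells (SD, n = 3 each). For Rab27a this was a log2 fold change of -0.48 ± 0.14 (SE), with a limma adjusted p of 0.0448. That call was lost under 11 of 18 other settings, among them the fit with no filter (adjusted p = 0.0529) and the one without naive replicate 1 (0.144). At d15 against naive the log2 fold change of Rab27a was -0.09 (adjusted p = 0.757).

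Rab27b, on chromosome 18, shares the docking role of Rab27a and was the lowest Rab gene per length, at 0.128 scaled CPM per kb. It held 18, 31 and 22 reads in naive, 6 and 2 in d15, and 64, 37 and 71 in d35 libraries. That is 0.622, 0.778 and 0.795 scaled CPM in naive, 0.212 and 0.0758 in d15, and 2.24, 1.14 and 1.87 in d35 libraries. The order of the groups was thus d15, naive, d35, with no overlap between any of them. Rab27b averaged 1.75 ± 0.558 scaled CPM at d35 (n = 3) and 0.144 ± 0.0963 at d15 (SD, n = 2). On the log2(value + 1) scale the difference at d35 against d15 was 1.25 ± 0.24 (SE), with a limma adjusted p of 0.0111. Against naive the log2 differences of Rab27b were 0.65 at d35 (adjusted p = 0.0599) and -0.60 at d15 (adjusted p = 0.139). Without the added 1, the fits to recovered reads gave Rab27b 3.74 to 3.78 at d35 against d15 and -2.55 to -2.48 at d15 against naive, where DESeq2 passed (adjusted p = 0.0124). Rab27b passed the filter on low values only through the d35 libraries. With no filter its adjusted p was 0.00473 at d35 against d15 and 0.0353 at d35 against naive. Of 8 mast cell, basophil and platelet markers, 3 were in the table, the platelet genes Pf4, Ppbp and Itga2b. Platelets are another cell type known to hold Rab27b. The 3 markers summed to 1.56 to 2.51 scaled CPM in naive, 1.61 to 2.29 in d15 and 2.97 to 5.37 in d35 libraries, and their part in the Rab27b values was not tested.

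The most abundant secretory Rabs per length were Rab8b, which carries vesicles to the plasma membrane, and Rab10, known in macrophages for delivery of Toll-like receptor 4 to the surface. Rab8b stood at 466, 435 and 429 scaled CPM in naive, 416 and 364 in d15, and 507, 454 and 415 in d35 libraries. Its d15 libraries were below all naive libraries, with a log2 fold change of -0.19 that did not pass (adjusted p = 0.255). Rab10 stood at 260, 264 and 264 scaled CPM in naive, 269 and 269 in d15, and 262, 266 and 263 in d35 libraries. Its coefficient of variation over all 8 libraries was 1.25%, the lowest of the family. Rab3d, a secretory vesicle Rab, had a log2 fold change of -0.17 at d35 against naive (adjusted p = 0.0935), and Rab13, linked to junctions and surface delivery, one of 0.42 (adjusted p = 0.151). The log2 fold change of Rab3a, the neuronal relative of Rab3d, at d15 against naive was 0.41 (adjusted p = 0.153). In all, 2 of 10 tested secretory Rabs were called at d35 against naive, both lower, with a class median log2 fold change of 0.03. Of all tested genes 16.2% were called in that comparison, 6.32% as lower.

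Among late endosomal Rabs, Rab7b on chromosome 1 (131688695 to 131715439, plus strand) is known for transport between endosomes and the Golgi and, in mouse macrophages, for degradation of Toll-like receptors. Rab7b stood at 45.9, 50.9 and 49.0 scaled CPM in naive, 38.3 and 36.8 in d15, and 73.3, 51.6 and 65.3 in d35 libraries. Every d15 library was below every naive library, and every d35 library was above, the d35 replicate 2 by little. Rab7b averaged 63.4 ± 11.0 scaled CPM at d35 (n = 3) and 37.6 ± 1.07 at d15 (SD, n = 2). The log2 fold change at d35 against d15 was 0.72 ± 0.13 (SE), with a limma adjusted p of 0.00853. Against naive the log2 fold changes of Rab7b were 0.36 at d35 (adjusted p = 0.0557, and 0.00559 without d35 replicate 2) and -0.36 at d15 (adjusted p = 0.11). Leaving out d15 library A or B ended both calls between the times, with adjusted p-values of 0.0537 and 0.0913 for Rab7b and 0.0569 and 0.114 for Rab27b.

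Rab7, which drives fusion of late endosomes and phagosomes with lysosomes, was 162 scaled CPM per kb and far above Rab7b. It stood at 423, 401 and 425 scaled CPM in naive, 418 and 406 in d15, and 450, 421 and 441 in d35 libraries. The d35 range of Rab7 overlapped the naive range, and the log2 fold change was 0.07 (adjusted p = 0.466). Rab29, which recruits the kinase LRRK2 to Golgi and lysosomal membranes, stood at 68.3, 70.3 and 72.4 scaled CPM in naive, 71.2 and 78.7 in d15, and 83.6, 77.8 and 78.0 in d35 libraries. Its d35 libraries were all above its naive libraries, but the log2 fold change of 0.18 did not pass (adjusted p = 0.113). Rab9, which returns cargo from late endosomes to the Golgi, had a log2 fold change of 0.20 at d35 against naive (adjusted p = 0.159). All 6 tested late endosomal Rabs, with Rab12 and Rab24, had values above 0 at d35 against naive, 0.05 to 0.36. The median over all tested genes was -0.0022, and the share of them above 0 is not given here. None of the 6 was called in that comparison, beside 16.2% of all tested genes. For Rab24, 49.6% of 50-base stretches also occur in Prelid1, so its level is uncertain.

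Early endosomal and recycling Rabs gave no call in any comparison in limma, and all 11 tested had log2 fold changes within 0.25 of 0 in each of the 3. Of all tested genes, 4.37% were called at d15 against naive, 16.2% at d35 against naive and 7.39% at d35 against d15. Within 0.25 of 0 were 65.3%, 64.9% and 70.0% of all tested genes in the same comparisons. The values of these 11 Rabs at d35 against naive ran from -0.06 to 0.22. Rab14, which works between the trans-Golgi network, endosomes and phagosomes, was the most abundant per length. It stood at 540, 504 and 543 scaled CPM in naive, 498 and 510 in d15, and 503, 502 and 556 in d35 libraries, and its groups overlapped. Rab11a, the main recycling endosome Rab, stood at 126, 127 and 135 scaled CPM in naive, 140 and 143 in d15, and 144, 144 and 166 in d35 libraries. Its libraries from tumor-bearing lungs were all above its naive libraries, with a log2 fold change of 0.22 at d35 (adjusted p = 0.0657), which DESeq2 called (adjusted p = 0.0495). The length correction called Rab22a, an endosomal sorting Rab, at d35 against naive, with a log2 fold change of 0.27 (adjusted p = 0.0307). Rab5a, a core factor of early endosome fusion, averaged 138 ± 4.64 scaled CPM at d35 and 129 ± 8.12 in naive cells (SD, n = 3 each), a log2 fold change of 0.10 (adjusted p = 0.356).

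The ER and Golgi class also gave no call in limma. Rab1b and Rab1a, which carry cargo between the ER and the Golgi, were its most abundant members per length. Rab1a stood at 445, 446 and 445 scaled CPM in naive, 483 and 468 in d15, and 490, 471 and 486 in d35 libraries. All its libraries from tumor-bearing lungs were above the naive ones, yet the log2 fold change of Rab1a was 0.11 at d35 (adjusted p = 0.209). Rab1b stood at 346, 319 and 344 scaled CPM in naive, 350 and 319 in d15, and 372, 344 and 362 in d35 libraries, with overlapping groups. Rab33b, a Golgi Rab that binds the autophagy protein Atg16l1, had the lowest log2 fold change of the class at d35, -0.31 (limma adjusted p = 0.0643). DESeq2 called Rab33b lower (adjusted p = 0.0359). For Rab33b, 21.2% of 50-base stretches also occur in other genes. Of the remaining class, Rab28, a ciliary Rab, stood at 47.8, 46.9 and 50.6 scaled CPM in naive, 56.7 and 58.4 in d15, and 49.6, 45.6 and 51.4 in d35 libraries. Rab28 was high in both d15 libraries only, with a log2 fold change of 0.24 at d15 against naive (adjusted p = 0.106). Rab40c, part of a ubiquitin ligase, stood at 32.6, 30.5 and 28.9 scaled CPM in naive, 30.3 and 25.5 in d15, and 30.2, 25.8 and 25.6 in d35 libraries, which overlapped.

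**Figure D2:**
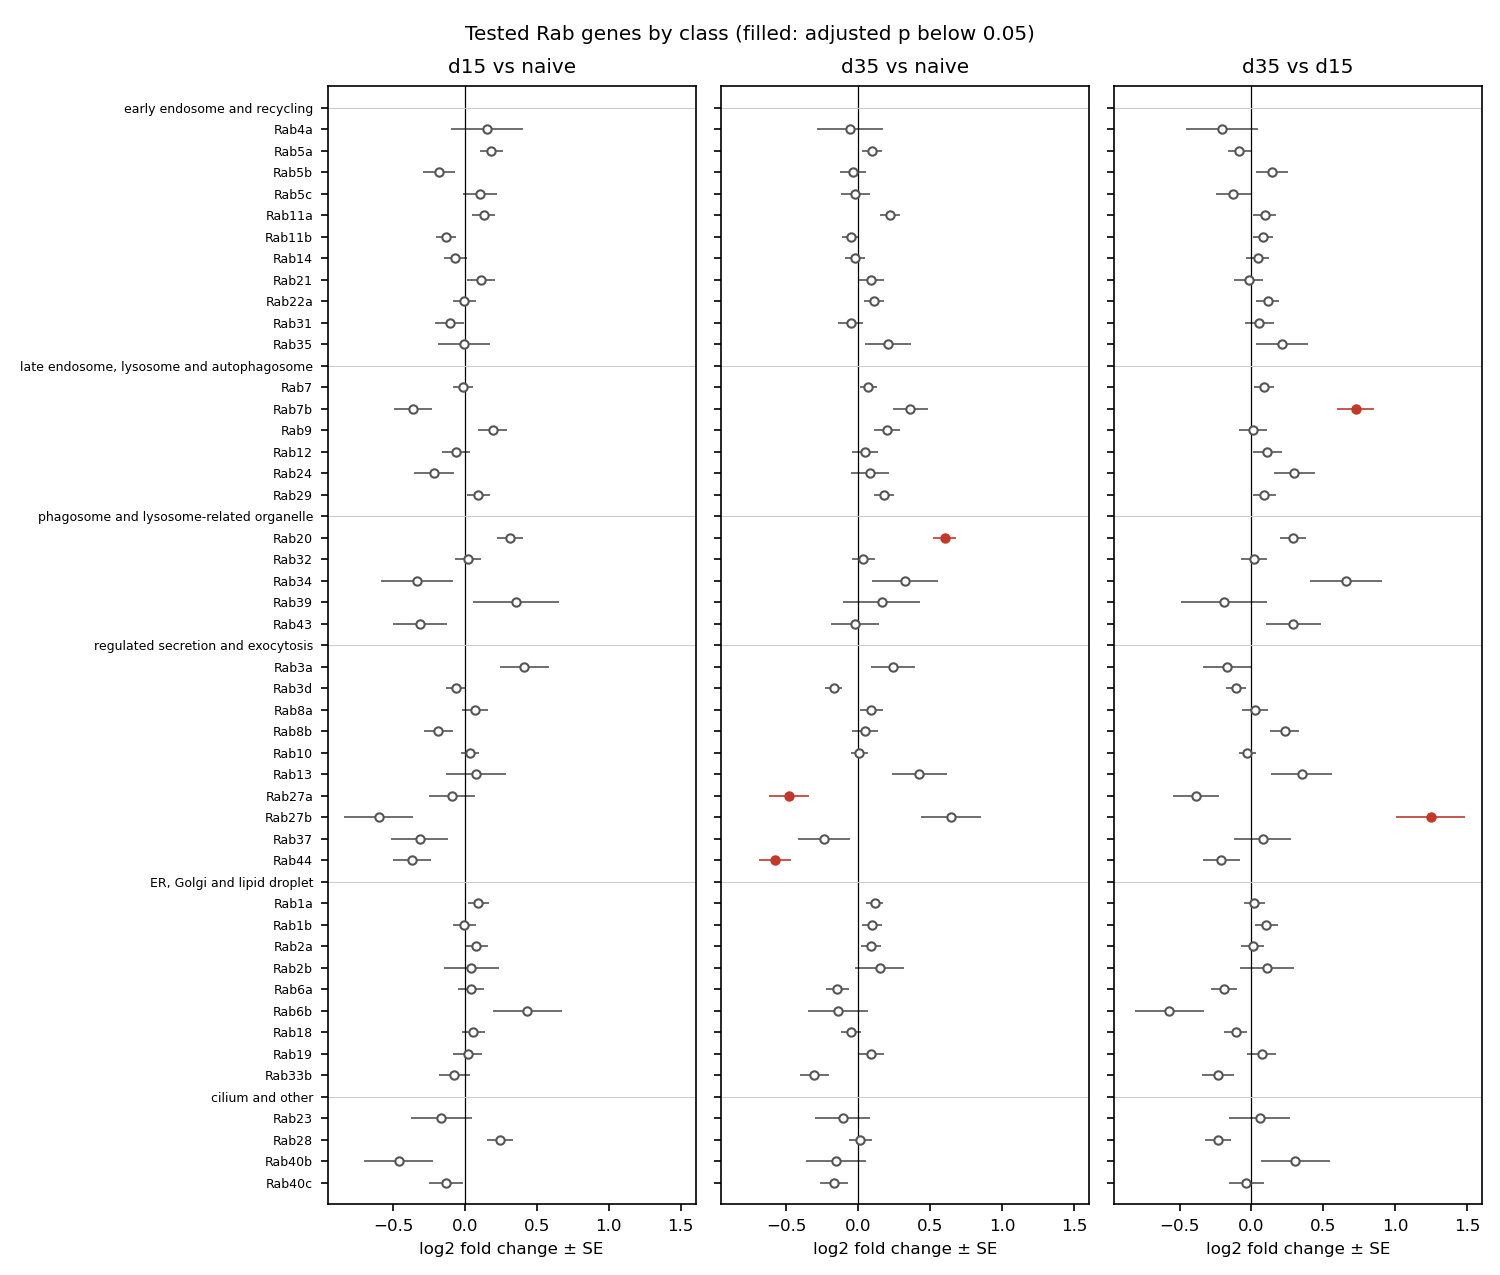
Log2 fold change ± SE (horizontal axes) of the 45 tested Rab genes, grouped by the membrane each is best known for, in the 3 comparisons; red filled points passed an adjusted p of 0.05. The 11 early endosomal and recycling Rabs stay within 0.25 of 0 in every comparison, beside 65.3%, 64.9% and 70.0% of all tested genes. The called genes are Rab20, Rab27a and Rab44 at d35 against naive and Rab7b and Rab27b at d35 against d15.

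Set against all tested genes, Rab genes gave few calls. At d15 against naive, limma called 0 of 45, while 2.37% of all tested genes were called higher and 2% lower. Of the 45, 7 had an unadjusted limma p under 0.05 (Rab3a, Rab5a, Rab7b, Rab20, Rab27b, Rab28 and Rab44). The share of all tested genes under that unadjusted level is not given here, so the 7 cannot be set against it. In the same comparison, edgeR's quasi-likelihood test and limma-voom called 0 of the 45, and DESeq2 called 2, Rab27b and Rab44. Both calls at d35 against d15 were higher, while 4.59% of all tested genes were called higher and 2.8% lower. For d35 against naive, 1 Rab gene was called higher and 2 lower, while 9.86% of all tested genes were called higher and 6.32% lower. DESeq2 added Rab7b and Rab11a as higher and Rab33b as lower. The length correction gave 4 higher and 1 lower, adding Rab7b, Rab22a and Rab27b as higher and losing Rab27a. The shares of all tested genes above are those of the limma fit, and shares under the other fits are not given here.

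Groups did not overlap for 21 Rab genes (46.7%) at d15 against naive, beside 48.2% of all tested genes. They did not overlap for 11 (24.4%) at d35 against naive, beside 36.7%, and for 21 (46.7%) at d35 against d15, beside 38.4%. The median size of the log2 fold change among Rab genes was 0.110 at d15 and 0.109 at d35 against naive and 0.111 between the times. Over all tested genes it was 0.173, 0.174 and 0.146 in the same comparisons. Within 0.25 of 0 at d35 against naive were 37 of 45 Rab genes (82.2%), beside 64.9% of all tested genes. The difference between Rab genes and all genes was not tested.

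Summed over the 50 genes, Rab transcripts made up 5473 ± 101 scaled CPM in naive (n = 3), 5427 ± 133 in d15 (n = 2) and 5556 ± 86.3 in d35 libraries (SD, n = 3). The totals ranged from 5334 to 5651 over all libraries, and the groups overlapped. Per length, ER and Golgi Rabs took 30.1%, 31.0% and 30.4% of the family's level in naive, d15 and d35 cells. Early endosomal and recycling Rabs took 22.0%, 21.8% and 21.8%, and late endosomal Rabs 15.0%, 14.9% and 15.7%. Phagosomal Rabs took 13.5%, 13.9% and 14.0%. Secretory Rabs took 17.1 ± 0.495% in naive, 16.0 ± 0.135% in d15 and 15.9 ± 0.773% in d35 libraries, and no library from a tumor-bearing lung reached the lowest naive share of 16.7%. Such separation was not limited to this class. Ciliary and other Rabs took 2.23% to 2.29% in naive, 2.41% to 2.47% in d15 and 2.03% to 2.18% in d35 libraries. The ER and Golgi share was 30.8% to 31.1% in d15 and 29.9% to 30.5% in naive libraries, while d35 overlapped naive. These class shares were not tested.

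Along the order of levels, Rab32 stood alone at 233 scaled CPM per kb, with single libraries between 218 and 251. Rab1b (172), Rab14 (169), Rab1a (165) and Rab7 (162) followed so closely that their order is within the spread of the libraries. After them came Rab2a, an ER-to-Golgi Rab, at 108, Rab8b at 92.1 and Rab10 at 75.3 scaled CPM per kb. Rab6a, a Golgi Rab, at 61.4, Rab11a at 60.3 and Rab5a at 57.7 were again close together. Of the called genes, Rab44 had 37.5, Rab20 24.0, Rab7b 11.3 and Rab27a 5.19 scaled CPM per kb. The called genes thus lay in the middle and lower part of the order, with Rab27b last.

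**Figure D3:**
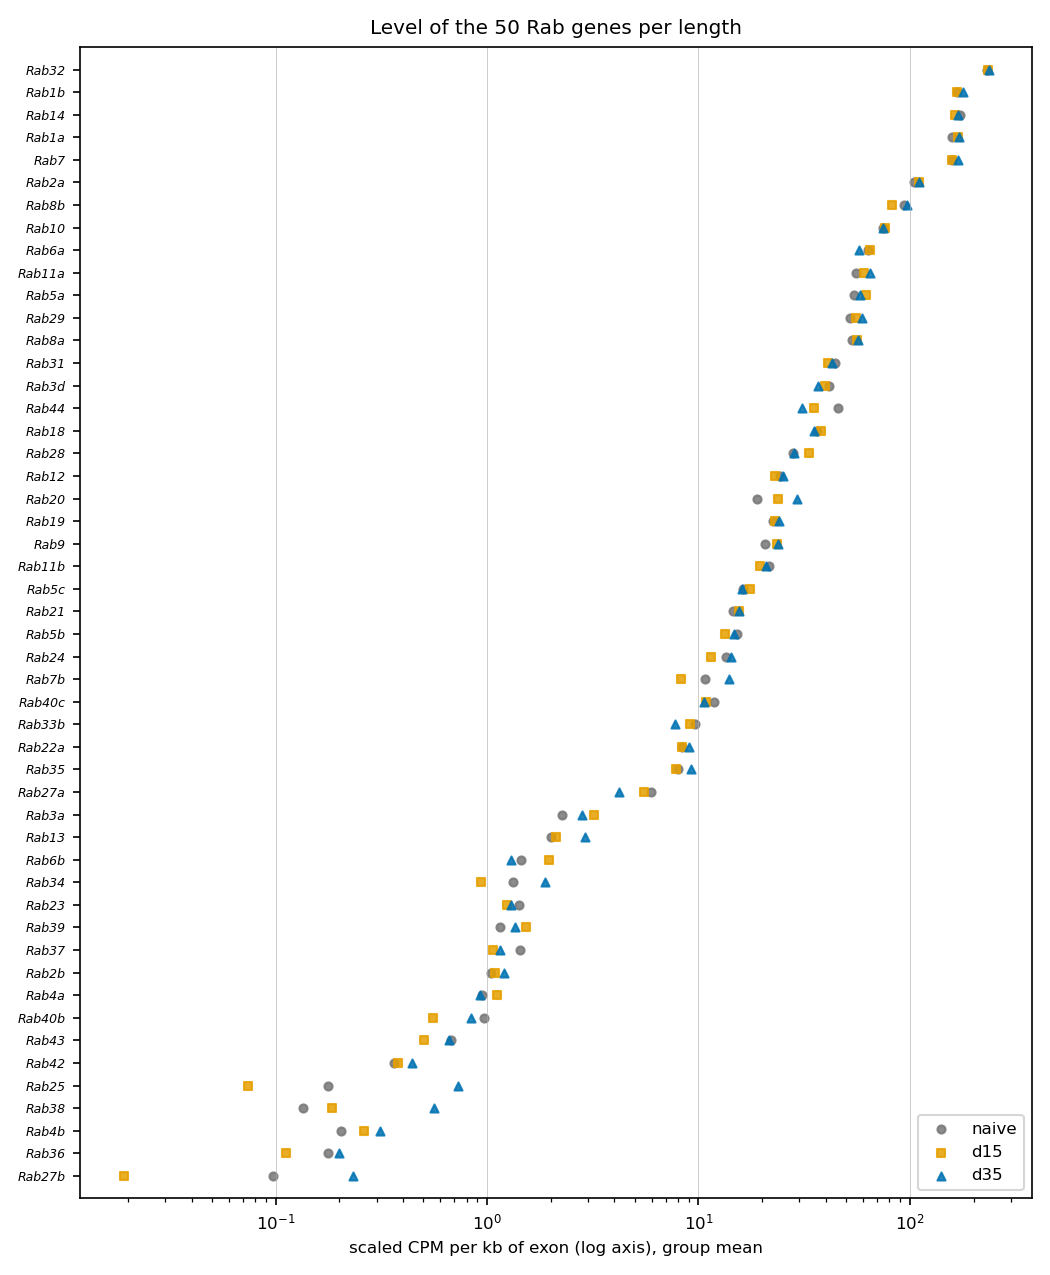
Mean level per group of all 50 Rab genes in scaled CPM per kb of exon (log axis), ordered by the mean over all libraries; naive grey circles, d15 orange squares, d35 blue triangles. The group means lie close together for most genes above 10, while those of Rab20, Rab44 and Rab7b are visibly apart.

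Paralog pairs differed in their shares. Rab7b made up 6.31 ± 0.477% of the summed per-length level of Rab7 and Rab7b in naive, 4.99 ± 0.037% in d15 and 7.67 ± 1.00% in d35 libraries. Rab27b made up 1.64 ± 0.391%, 0.341 ± 0.218% and 5.45 ± 2.16% of the Rab27 pair in naive, d15 and d35 libraries (SD, n = 3, 2 and 3). Rab27a held at least 93.2% of the pair in every library. Rab11b, the less abundant recycling Rab, made up 28.0 ± 0.825% of its pair in naive, 24.4 ± 0.0167% in d15 and 24.3 ± 0.962% in d35 libraries, and no library from a tumor-bearing lung reached the naive range. Rab8a made up 36.3 ± 1.49% of its pair in naive, 40.5 ± 1.89% in d15 and 37.0 ± 0.196% in d35 libraries. Rab1a held 47.8% to 51.0% of its pair and Rab2a 98.8% to 99.2% in all libraries, so these hardly moved. These shares were not tested. For Rab11b, 13.6% of 50-base stretches also occur in other genes, and for Rab7 12.7%, pseudogene copies among them.

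**Figure D4:**
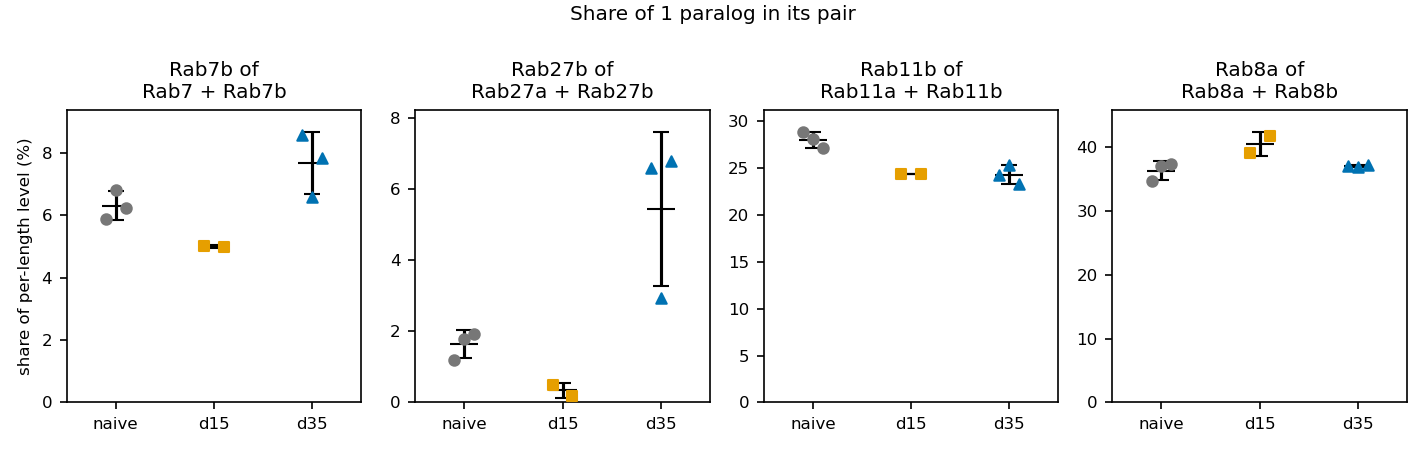
Share (%) of the first-named gene in the summed per-length level of its paralog pair, by group; points are libraries and bars the mean ± SD, with axes from 0. The Rab7b and Rab27b shares are lowest at d15 and highest at d35, and the Rab11b share is lower in all d15 and d35 libraries (23.3% to 25.3%) than in the naive ones (27.1% to 28.8%).

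The remaining 5 Rab genes were too low to test. Rab25, an epithelial relative of Rab11, held 7, 6 and 4 reads in naive, 3 and 1 in d15, and 37, 7 and 31 in d35 libraries. Rab38, the relative of Rab32 on melanosomes and lung lamellar bodies, held 6, 13 and 2 reads in naive, 3 and 15 in d15, and 37, 20 and 28 in d35 libraries. Both averaged highest at d35, and d35 replicate 2 of Rab25 was no higher than naive replicate 1. The 6 epithelial and tumor markers in the table summed to 1400 to 1440 scaled CPM in naive, 1228 to 1349 in d15 and 1201 to 1324 in d35 libraries, and at d35 against naive 2 were called higher, the keratins Krt8 and Krt18, and 1 lower, Epcam. Krt8 stood at 0.118 to 0.336 scaled CPM in naive, 0.31 to 0.318 in d15 and 10.1 to 18.8 in d35 libraries. Krt18 stood at 0.124 to 0.333, 0.212 to 0.258 and 7.26 to 18.5 scaled CPM in the same groups. Both keratins passed the filter on low values only through the d35 libraries, so their calls are not independent of that level. Epcam stood at 185 to 216 scaled CPM in naive, 199 to 213 in d15 and 85.9 to 167 in d35 libraries. Their part in the Rab25 and Rab38 values was not tested. Without a filter on low values, Rab38 at d35 against naive had a log2 difference of 0.63 (limma adjusted p = 0.0447) and Rab25 one of 0.54 (adjusted p = 0.11). Rab42, Rab4b and Rab36 held 73, 77 and 169 reads over all 8 libraries.

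Regulators and partners of Rab proteins were read from the same fit, using a list of 129 genes, of which 123 were in the table and 116 were tested. At d15 against naive, 9 (7.76%) were called, 4 higher and 5 lower, beside 4.37% of all tested genes. At d35 against naive, 20 (17.2%) were called, 5 higher and 15 lower, beside 16.2% of all tested genes. The length correction gave 8 higher and 5 lower. At d35 against d15, 12 (10.3%) were called, 7 higher and 5 lower, beside 7.39%. Leaving out d15 library B left 0 calls at d15 against naive and 0 at d35 against d15, and leaving out naive replicate 2 left 2 at d15 and 6 at d35 against naive. Leaving out any other library except d35 replicate 2 also moved at least 1 of the 3 counts by over 1.5 times. For these other fits the share of all tested genes called is not given here. Median log2 fold changes of the list were -0.10, -0.09 and 0.05 in the 3 comparisons, against 0.0121, -0.0022 and -0.0026 over all tested genes.

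Among the GAPs, Tbc1d15, which acts on Rab7, and Tbc1d14, a Rab11 partner in autophagy, were high at d15. Tbc1d15 stood at 195, 173 and 191 scaled CPM in naive, 257 and 275 in d15, and 196, 201 and 189 in d35 libraries. Both d15 libraries stood above all others, with a log2 fold change of 0.51 against naive (adjusted p = 0.00852) and -0.44 at d35 against d15 (adjusted p = 0.0078). Tbc1d14 had a log2 fold change of 0.83 at d15 against naive (adjusted p = 0.0145) and -0.77 at d35 against d15 (adjusted p = 0.00797). Tbc1d5, another Rab7 GAP, which binds the retromer, averaged 50.6 ± 3.59 scaled CPM at d35 and 74.2 ± 6.29 in naive cells (SD, n = 3 each). Its log2 fold change was -0.54 ± 0.09 (SE), with a limma adjusted p of 0.00383. Tbc1d10a, a GAP for Rab27a and Rab35, rose at d35 by a log2 fold change of 0.57 (adjusted p = 0.0201). Tbc1d1, known for Rab control of glucose transporter traffic, was 0.61 higher at d35 than at d15 (adjusted p = 0.0171).

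Of the exchange factors, Rin2, which activates Rab5, stood at 344, 354 and 329 scaled CPM in naive, 339 and 344 in d15, and 263, 253 and 196 in d35 libraries. Only the d35 libraries were low, with a log2 fold change of -0.54 at d35 against naive (adjusted p = 0.00794). Dennd4a and Dennd4b, which activate Rab10, fell at d15, by 0.62 (adjusted p = 0.0297) and 0.54 (adjusted p = 0.0205) on the log2 scale, and Dennd4a fell by 0.54 at d35 (adjusted p = 0.014). Rab3il1, an exchange factor for Rab8 and Rab3a, averaged 142 ± 9.31 scaled CPM at d35 and 94.1 ± 2.7 in naive cells (SD, n = 3 each). Its log2 fold change was 0.59 ± 0.11 (SE), with a limma adjusted p of 0.00771. Hps4, part of the exchange factor of Rab32 and Rab38, was lower at d35 than at d15, with a log2 fold change of -0.46 (adjusted p = 0.0314).

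Of the effectors, Mical1, which acts on actin and binds Rab8-family proteins, fell at both times. It averaged 157 ± 12.0 scaled CPM at d15 (n = 2) and 182 ± 20.5 at d35 (n = 3), against 246 ± 11.7 in naive cells (SD, n = 3). Its log2 fold changes against naive were -0.65 at d15 (adjusted p = 0.00975) and -0.44 at d35 (adjusted p = 0.0112). Rab11fip1, an effector of Rab11, fell by 0.60 at d15 (adjusted p = 0.0268) and by 0.37 at d35 (adjusted p = 0.0442) on the log2 scale. Rabepk, a Rab9 effector, rose by 0.52 at d15 (adjusted p = 0.0335). Fyco1, which links Rab7 to kinesin, fell by 0.46 at d35 (adjusted p = 0.0193). Rilpl2, which binds phosphorylated Rab8 and Rab10, rose by 0.55 at d35 against naive (adjusted p = 0.00776) and by 0.49 against d15 (adjusted p = 0.0283).

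Plekhm2, a kinesin adaptor on lysosomes, was 0.45 higher at d35 than at d15 (adjusted p = 0.0312), and Myo5a, the myosin that moves Rab27a-bearing organelles, was 0.82 higher (adjusted p = 0.0458). Unc13d, a Rab27 effector for granule release, had a low level and was named after its values were seen. It stood at 1.46, 1.79 and 1.57 scaled CPM in naive, 1.45 and 1.71 in d15, and 3.42, 3.45 and 6.34 in d35 libraries. All d35 libraries were above the others, with a log2 fold change of 1.01 at d35 against naive (adjusted p = 0.0134). Myrip, another Rab27a effector, named in the same way, was at 1.94 and 2.9 scaled CPM in d15, against 0.371 to 0.951 in naive libraries, a log2 fold change of 1.02 (adjusted p = 0.0462). Myrip passed the filter on low values only through the d15 libraries, so its calls are not independent of its level there; with no filter the adjusted p was 0.0304. That call of Myrip was lost under 9 of 16 other settings and that of Myo5a under 10 of 17, while the calls of Rab3il1, Tbc1d5, Rin2 and Mical1 at d35 against naive held under all 18.

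Many calls of regulators did not hold when a single library was left out. At d15 against naive, the calls of Rab11fip1 and Dennd4a were lost under 6 of 17 settings, the length correction (log2 fold change -0.44 for each) and the omission of any naive or d15 library. That of Rabepk was lost under 5, the omission of any of the same libraries, and that of Dennd4b under 3, without naive replicate 2, d15 library A or d15 library B. Those of Tbc1d14 and Mical1 were lost under 2, without naive replicate 2 or d15 library B, and that of Tbc1d15 under 1, without d15 library B. At d35 against naive, the calls of Tbc1d10a and Fyco1 were lost under 4 of 18 settings, that of Dennd4a under 3 and that of Rilpl2 under 1, the length correction. At d35 against d15, the calls of Tbc1d1, Rilpl2, Plekhm2, Hps4 and Rin2 were lost when d15 library A or B was left out, and those of Tbc1d15 and Tbc1d14 when B was. Over all 17 settings, Plekhm2 lost its call under 5, Rilpl2 and Hps4 under 4 and Rin2 under 3.

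**Figure D5:**
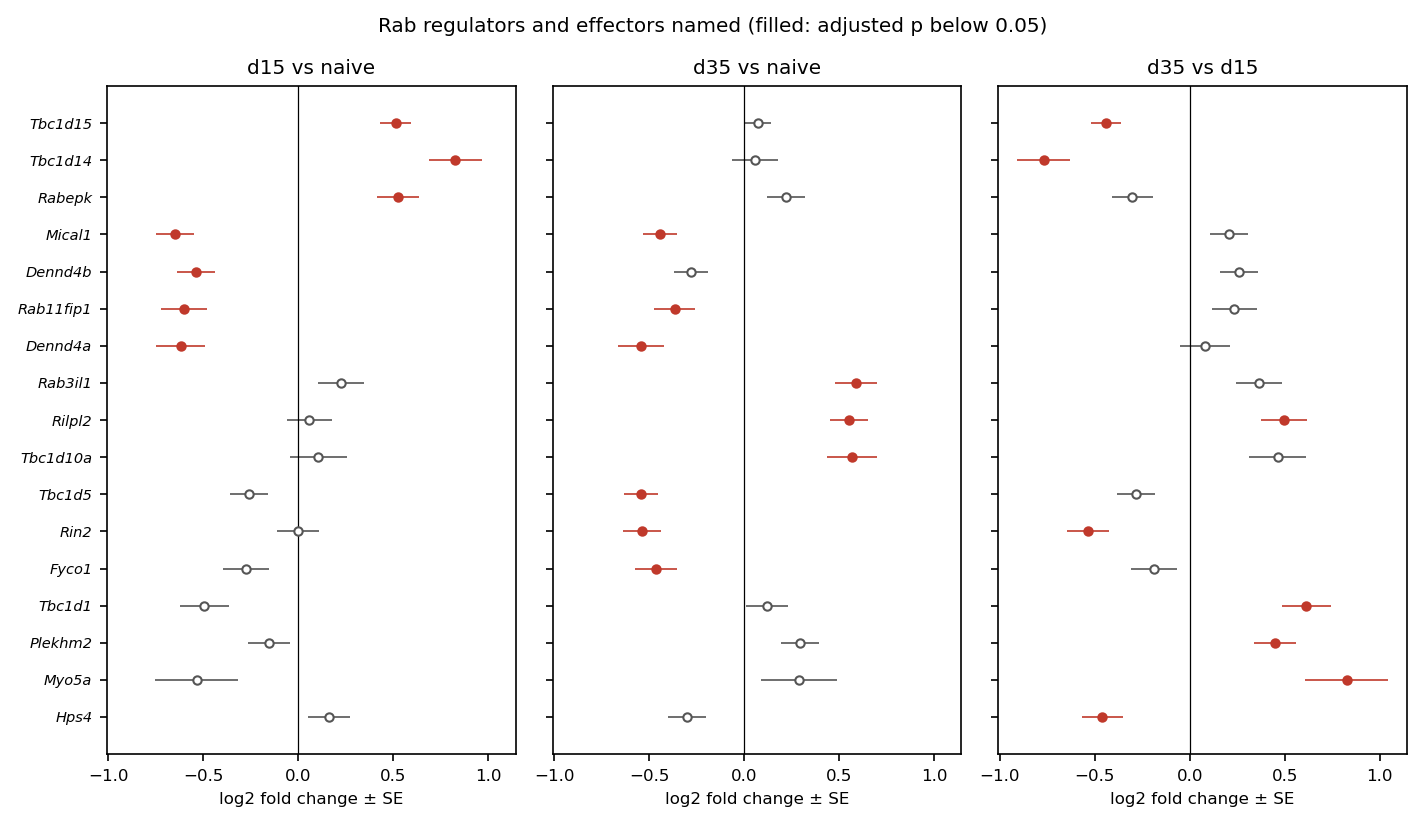
Log2 fold change ± SE (horizontal axes) of 17 named Rab regulators and effectors in the 3 comparisons; red filled points passed an adjusted p of 0.05. Tbc1d15 and Tbc1d14 are above 0 at d15 against naive and below 0 at d35 against d15, while Mical1 and Dennd4a are below 0 in both comparisons with naive cells.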

How the data were processed

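RNA of sorted macrophages was made into libraries with a SMART-Seq v4 low-input kit, per the labels' protocols. The submitters' processing notes name STAR 2.5, build mm10 and edgeR, while counting program, annotation and use of strand are not stated there. The deposited expression signal is a scaled CPM that the authors made from read counts: 100% of values came out as whole reads within 0.001 under the form (reads + 0.5) times a constant per library. For d15 against naive, the authors deposited log2 fold changes with p-values and a score (a likelihood ratio), per the file headers.

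Such values are not raw counts, so log2(value + 1) was fitted with limma 3.58.1 in R 4.3.3, using an intensity trend, for the 11273 genes that reached 1 in 2 or more libraries. The spread was estimated over all 8 libraries together (residual df 5). Benjamini-Hochberg adjustment ran over all tested genes, and genes were called at an adjusted p of 0.05. The log2(value + 1) scale understates the change of low genes. Levels per kb used exon lengths of GENCODE vM21, found for 99.5% of genes, which need not be those of the authors' counting, and gene coordinates are from that annotation. The limma step was tested on simulated data.

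Alternatives were a pseudocount of 0.5, no filter, a filter at 5, TMM scaling, limma-voom, edgeR 4.0.16 and DESeq2 1.42.0 on recovered reads, only the 2 groups compared, a length correction, a replicate block and leaving out each library. Rab genes, lists, classes and the naming rule were chosen with earlier results of these data known. The rule gave values in every library for called Rab genes and the 2 most abundant per class, and named up to 5 regulators each way per comparison whose mean log2 value reached 3. Other Rab genes named were chosen after their values were seen. 1 called regulator is not reported here.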

Additional observations from a re-analysis of the deposited data

Results flagged for a closer look

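The effects at d35 and d15 share the naive libraries, and a difference between them is tested by the comparison of d35 with d15 in limma. It passed for 2 Rab genes, Rab27b (log2 difference 1.25, adjusted p = 0.0111) and Rab7b (0.72, adjusted p = 0.00853). Both stood below naive at d15 and above naive at d35, and neither comparison with naive passed. Rab27b was tested only through its d35 libraries, the only ones to reach the filter on low values, so its result is not independent of that level.

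Among regulators and effectors the difference passed for 12 genes. Among them it was positive for Tbc1d8, a GAP (log2 difference 1.72), Unc13d (1.02), Myo5a (0.82), Tbc1d1 (0.61), Rilpl2 (0.49) and Plekhm2 (0.45). It was negative for Myrip (-1.55), Tbc1d14 (-0.77), Rin2 (-0.53), Hps4 (-0.46) and Tbc1d15 (-0.44). Tbc1d8 stood at 10.2, 4.31 and 5.43 scaled CPM in d35 libraries and at 0.995 and 1.41 in d15 libraries, so its groups did not overlap. The call of Tbc1d8 was lost under 4 of 17 other settings and that of Unc13d under 5 of 16. Myrip held 0.26, 0.198 and 0.0131 scaled CPM in d35 libraries, against 1.94 and 2.9 in d15 libraries, and its fitted value rests on low levels. Myrip reached the filter on low values only in the d15 libraries, so its result is not independent of its level there, and without d15 library B it did not pass (adjusted p = 0.0822). Groups of 2 or 3 libraries are too small to test for a single outlying library.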

How the results depend on the processing

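Rab20 and Rab44 kept their calls at d35 against naive under all 18 alternatives, with log2 fold changes of 0.42 to 0.65 and -0.70 to -0.44. The count of Rab genes called at d15 against naive, 0, became 2 under DESeq2 and 2 in the fit of only the 2 groups compared, and 0 to 2 with single libraries left out. At d35 against naive, 3 became 6 under DESeq2 (3 higher, 3 lower, with Rab7b, Rab11a and Rab33b added), 5 under the length correction, 4 with no filter, and 2 to 5 with single libraries left out. At d35 against d15, 2 became 1 under the filter at 5, which drops Rab27b, and 0 to 3 with single libraries left out. The log2 fold change of Rab27a at d15 against naive ran from -0.16 to 0.00 with single libraries left out and changed sign without naive replicate 1.

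Regulators and effectors called at d15 against naive numbered 9, and became 18 under DESeq2, 16 in the fit of 2 groups and 0 to 17 with single libraries left out. At d35 against naive, 20 became 13 under the length correction and 6 to 25 with single libraries left out. At d35 against d15, 12 became 19 under DESeq2, 6 in the fit of 2 groups and 0 to 16 with single libraries left out. The share of all tested genes called under each alternative is not given here. The counts of Rab genes and regulators under the alternatives therefore cannot be set against it. The causes were not tested.

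With the replicate number as a block at d35 against naive, 2 Rab genes (Rab20 and Rab44) and 17 regulators were called. Deviations of same-numbered libraries from their group means had correlations of -0.007, -0.046 and 0.147. Those of differently numbered libraries ran from -0.1 to 0.103. These values show no clear pairing, and with 3 libraries per group they cannot exclude it. The median log2 fold change of all tested genes was at most 0.023 under the alternatives run. Leaving out 1 d15 library leaves 1, which is then assumed to vary like the other groups. The filter on low values left 5 of the 50 Rab genes untested.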
